A study of Mus musculus with 7 samples.

Results

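The 36 genes described here encode enzymes and membrane proteins of the lysosome, together with Tfeb, a transcription factor that acts on such genes. They were taken by gene name from 22880 genes of an RNA-seq table of optic nerves at postnatal day (P) 14, and all 36 had a row. By role, the genes comprised 10 proteases, 9 hydrolases and activators of sphingolipid breakdown, 9 other glycosidases and sulfatases, 2 enzymes acting on esters of fatty acids (a lipase and a thioesterase), 5 membrane proteins and Tfeb. The sphingolipid group was kept apart from the proteases and from the other glycosidases, and its enzymes act on lipids in which the myelin membrane is rich.

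The mutants were Cre+ Fasn lox/lox mice (n = 3; olig2cre FASN lox/lox), in which Cre recombinase driven by Olig2 regulatory elements removes fatty acid synthase (FASN), the enzyme that makes fatty acids from malonyl-CoA, from cells of the oligodendrocyte (OL) lineage. The controls were Cre- Fasn lox/lox mice (n = 4; FASN lox/lox), so both genotypes carried the floxed alleles and only the mutants carried Cre. The floxed allele came from 129X1/SvJ and was backcrossed into C57Bl/6, the background on which the Cre line was held. Each sample held both optic nerves of 1 mouse aged P14, so replicates were separate animals. The nerve also holds astrocytes, microglia, vessels and meninges, and every value is a mean over all of these cells. Whether Olig2-driven Cre acted in any cells outside the OL lineage was not measured here. In such bulk samples, fewer cells of a type and less RNA per cell cannot be told apart.

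Lysosomes break down proteins, glycans and lipids with acid hydrolases, most of which reach them by the mannose 6-phosphate route. Lipids of the myelin membrane such as galactosylceramide, sulfatide and gangliosides are degraded there by hydrolases that often need small activator proteins, and inherited loss of several of these enzymes damages white matter, as in Krabbe disease (GALC) and metachromatic leukodystrophy (ARSA). TFEB and its relatives bind an E-box motif in the promoters of many lysosomal genes and are held in check by mTORC1.

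The E-box was searched in RefSeq promoter windows (GRCm38.p6), which run from 250 bases before to 50 bases after each transcription start, and 33 of the 36 genes had a window. The motif CACGTG is its own reverse complement, so 1 search covers both strands, and its extension TCACGTGA contains it. CACGTG was present in 12 of the 33 genes (36.4%), in 11.4% of the tested genes that had a window and in 8.09% of all genes with a window. TCACGTGA was present in 5 of the 33 (15.2%), in 2.03% of the tested genes and in 1.12% of all genes. The stretches of the 5 genes with the extended motif, of Lamp1, which had 4 E-boxes close together, and of Gaa, which had the highest log2 fold change of the 36, are printed here 5′ to 3′ on the strand of each gene, with E-boxes in capitals. These letters are a description of the windows, and binding was not measured.
Ctsa (chr2:164833752-164833792, plus strand): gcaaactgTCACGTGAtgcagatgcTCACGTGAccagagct
Ctsd (chr7:142387911-142387934, minus strand): cccgcgtcTCACGTGAcccgttga
Ctsd, second stretch (chr7:142388058-142388077, minus strand): tccccCACGTGacctgtatc
Gla (chrX:134601185-134601241, minus strand): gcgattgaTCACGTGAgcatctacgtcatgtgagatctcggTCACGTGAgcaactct
Cln3 (chr7:126583343-126583394, minus strand): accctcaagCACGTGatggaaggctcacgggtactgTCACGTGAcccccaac
Mcoln1 (chr8:3500439-3500488, plus strand): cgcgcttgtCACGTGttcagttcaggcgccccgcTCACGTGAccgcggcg
Lamp1 (chr8:13159091-13159160, plus strand): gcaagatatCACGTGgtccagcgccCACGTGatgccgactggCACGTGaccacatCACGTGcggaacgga
Gaa (chr11:119267814-119267837, plus strand): ctgtgcgatCACGTGtttgactct

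Levels are given as FPKM, reads scaled to the length of the gene and to the total of the library, which makes genes of different length comparable. Fasn, the targeted gene, was at 169 to 228 FPKM in the controls and at 49.0 to 69.3 FPKM in the mutants, and fell by 1.86 on the log2 scale (limma adjusted p = 0.00312). Estimated depth was between 27.4 and 43.3 (in units of 1e6 reads) per sample, and the least abundant lysosomal gene, Idua, was behind 224 to 388 estimated reads in every sample. Differences are log2 fold changes of mutant over control on log2(FPKM + 0.5), tested with limma over 13866 genes with Benjamini-Hochberg adjustment at a threshold of 0.05. With this test 175 genes were higher in the mutants (1.26% of those tested), 188 were lower (1.36%) and 363 were called in either direction (2.62%). Of the calls, 48.2% were thus higher, against 29.3% after centring every sample on its median, 34.1% with trimmed-mean scaling, 27.8% on the deposited normalized counts, 59.5% with sample weights and 76.8% with the replicate number as a block. The median log2 fold change of all tested genes was 0.05, and 60.1% of them were above 0. Among the samples, mutant 1 held the highest value of 20 of the 36 genes, against 32.7% of all tested genes, and control 2 held the lowest of 21, against 26.7% of all tested genes.

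All 36 lysosomal genes were measured above the minimum and tested. Most lay slightly above the control level in the mutants, and 1 of them, Fuca1, the lysosomal alpha-L-fucosidase, was called higher, with no gene called lower. In total 28 of the 36 (77.8%) had a log2 fold change above 0, a count that was 21 after median centring, 23 on normalized counts and 27 with trimmed-mean scaling. Of all tested genes, 60.1% were above 0 with the deposited scaling, and 43.2%, 45.2% and 49.1% in those other settings. The median of the 36 was 0.095 above that of all tested genes with the deposited scaling and after centring, and 0.093 above on normalized counts. The median over the 36 was 0.14, with a range from -0.22 for Tfeb to 0.48 for Gaa. All 3 mutants were above all 4 controls for 9 of the 36 genes (25%), a pattern that 12.9% of all tested genes had, and these were Ctsb, Ctsf, Ctsh, Hexa, Gm2a, Gusb, Fuca1, Lamp2 and Cln3. All mutants were below all controls for 2 genes, Ctsl and Lipa (5.56%), against 8.26% of all tested genes. At an unadjusted p under 0.05, 11 of the 36 were higher (30.6%) and 0 were lower, whereas 15.9% of all tested genes were higher at that level. With the replicate number as a block, a fit in which control 4 has no partner and does not enter the difference, 4 genes were called higher (Fuca1, Ctsh, Gaa and Lamp2, or 11.1%), beside 6.42% of all tested genes. Without mutant 1, 26 of the 36 were above 0 (Arsa, Naglu and Neu1 turned below and Ids above), and no gene was called.

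**Figure D1:**
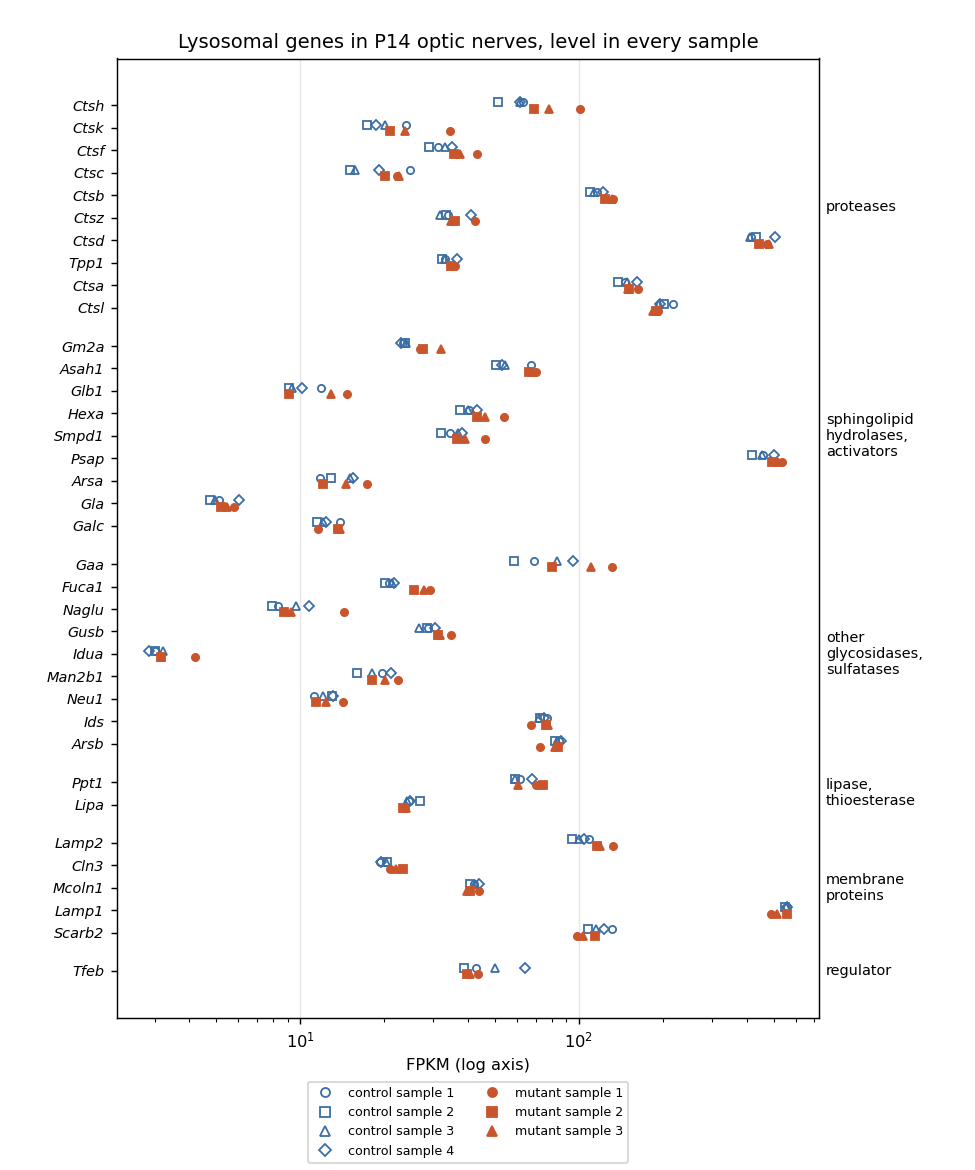
Level in FPKM, on a log axis, of each of the 36 lysosomal genes in every sample, grouped by role. Open symbols are the 4 controls and filled symbols the 3 mutants, with 1 shape per replicate number. The groups overlap for 25 genes, all filled symbols lie to the right of the open ones for 9, Fuca1 among them, and to the left for Ctsl and Lipa.

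The 9 genes of sphingolipid breakdown all had a log2 fold change above 0 with the deposited scaling, 6 of 9 after median centring (without Galc, Gla and Arsa) and 7 of 9 on normalized counts. The median was 0.19, with a range from 0.06 to 0.29. None passed the limma test, and 3 (Gm2a, Asah1 and Hexa) were higher at an unadjusted p under 0.05. Their summed level was 600.2 to 703 FPKM in the controls and 708 to 780.3 FPKM in the mutants, and the sums of the genotypes did not overlap. The sum was carried by Psap, which encodes prosaposin, the precursor of the saposins that present sphingolipids to their hydrolases. Psap was at 456, 418, 455 and 502 FPKM in controls 1 to 4 and at 534, 494 and 516 FPKM in mutants 1 to 3. Mutant 2 lay below control 4, so the groups overlapped, and the log2 fold change was 0.17 (SE 0.0761, limma adjusted p = 0.208).

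The largest differences of the sphingolipid group were those of Gm2a and Asah1. Gm2a encodes the activator that lifts GM2 ganglioside to hexosaminidase A. It was at 23.3, 23.7, 24.0 and 23.1 FPKM in the controls and at 27, 27.6 and 32.1 FPKM in the mutants. The controls lay close together and all mutants were above them, with mutant 3 highest. The log2 fold change of 0.29 (SE 0.0725) came with a limma adjusted p of 0.0707. Asah1, the acid ceramidase that splits ceramide into sphingosine and a fatty acid, was at 67.4, 50.4, 54.4 and 52.8 FPKM in the controls. In the mutants it was at 70.2, 66.3 and 67.6 FPKM. Control 1 alone reached the range of the mutants, and the log2 fold change was 0.28 (SE 0.0961, limma adjusted p = 0.129).

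Hexa, the alpha subunit of hexosaminidase A, was at 40.2, 37.5, 39.9 and 42.9 FPKM in the controls and at 54.0, 43.1 and 46.1 FPKM in the mutants. All mutants were above all controls, although mutant 2 exceeded control 4 only slightly, and the log2 fold change was 0.24 (SE 0.0849, limma adjusted p = 0.133). The smallest differences were those of Galc, the galactosylceramidase that degrades the main glycolipid of myelin, and Gla, the alpha-galactosidase A. Galc was at 13.9, 11.5, 12 and 12.3 FPKM in the controls and at 11.5, 13.6 and 13.8 FPKM in the mutants. Gla was at 5.10, 4.73, 4.95 and 6.04 FPKM in the controls and at 5.76, 5.21 and 5.44 FPKM in the mutants. The groups overlapped for both genes, with log2 fold changes of 0.06 for Galc (SE 0.0935) and 0.07 for Gla (SE 0.101). Both signs turned after median centring, to -0.02 for Galc and -0.01 for Gla. The other members of the group, Glb1 (beta-galactosidase), Smpd1 (acid sphingomyelinase) and Arsa (arylsulfatase A, which desulfates sulfatide), overlapped between genotypes and had log2 fold changes of 0.25, 0.19 and 0.08. Arsa turned to -0.04 without mutant 1. Glb1 overlaps Tmppe on the same strand.

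**Figure D2:**
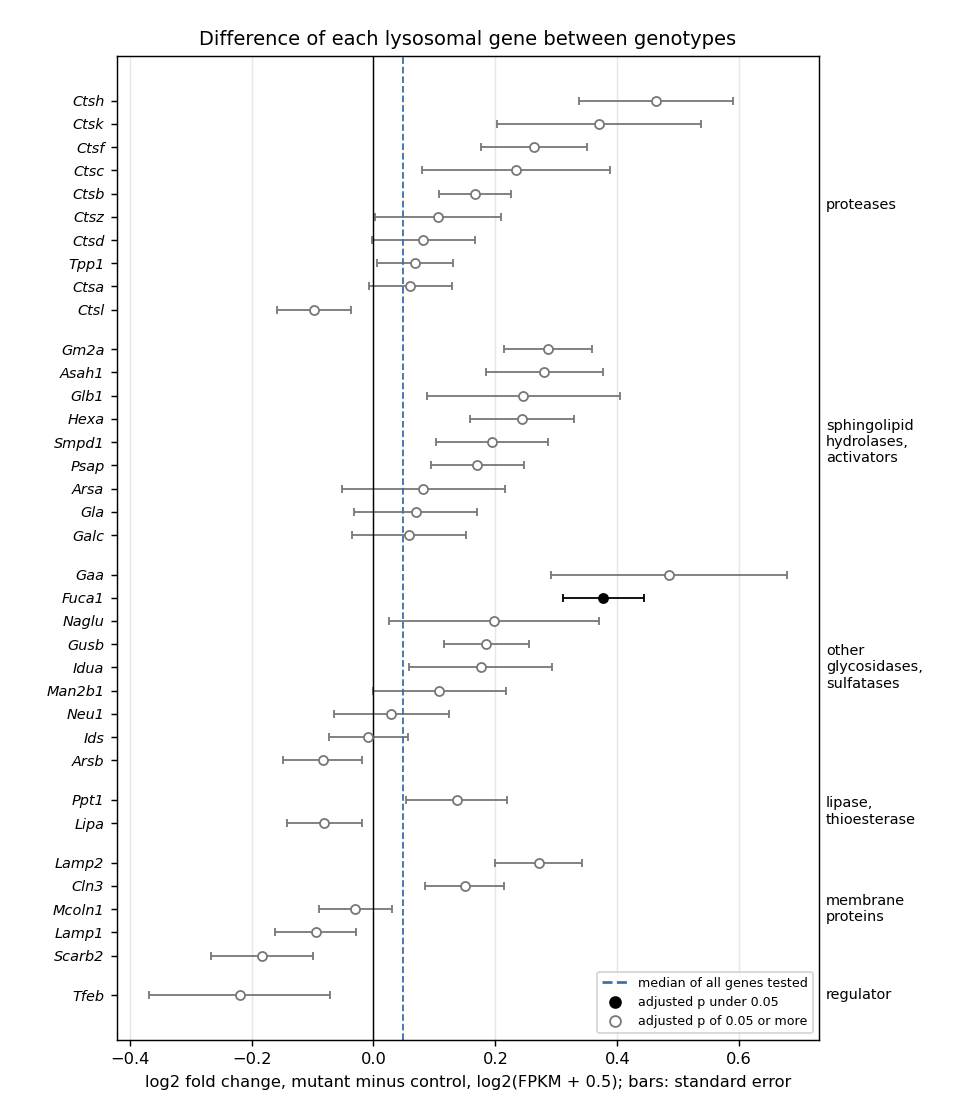
Log2 fold change of each lysosomal gene, mutant minus control, on log2(FPKM + 0.5), with bars of 1 standard error from limma, grouped by role. The dashed line is the median of all tested genes, 0.05. The filled point is Fuca1, the only gene with an adjusted p under 0.05, and all 9 genes of the sphingolipid group lie above 0 with the deposited scaling, 6 of them after median centring.

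Of the 9 other glycosidases and sulfatases, 7 had a log2 fold change above 0 (6 in each of the other scalings), the median was 0.18 and 1 passed the test. Fuca1 (chromosome 4, 135920735 to 135940311, plus strand, GRCm38), which removes fucose from glycoproteins and glycolipids, was at 20.8, 20.1, 21.4 and 21.7 FPKM in the controls and at 29.2, 25.5 and 27.7 FPKM in the mutants. All mutants were above all controls by a gap wider than the spread of either group. Mean levels were 21.0 FPKM in the controls (SD 0.710, n = 4) and 27.5 FPKM in the mutants (SD 1.84, n = 3). Fuca1 thus rose 1.31-fold, a log2 fold change of 0.38 (SE 0.0670) with a limma adjusted p of 0.0327. With the replicate block the adjusted p was 0.0314. The log2 fold change was between 0.33 and 0.43 with any 1 sample left out, but the adjusted p then exceeded the threshold in all cases except without mutant 2, where it was 0.0275. It was 0.0674, 0.0881, 0.112 and 0.0606 without control 1, 2, 3 and 4, and 0.0649 and 0.100 without mutant 1 and mutant 3. It was 0.0541 when genes of low level were tested as well.

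Gaa, the acid alpha-glucosidase that degrades glycogen, had the highest log2 fold change of the 36 genes and also the largest standard error. It was at 69.0, 58.3, 83.2 and 94.9 FPKM in the controls and at 131, 80.3 and 111 FPKM in the mutants. Mutant 2 lay within the range of the controls, and the log2 fold change was 0.48 (SE 0.194, limma adjusted p = 0.170). With the replicate block, in which control 4 does not enter, it was 0.60 with an adjusted p of 0.0293. Gusb, the beta-glucuronidase, was at 28.7, 28.5, 26.6 and 30.5 FPKM in the controls and at 34.9, 31.2 and 31.7 FPKM in the mutants. The groups were separate, but the gap between mutant 2 and control 4 was small. The log2 fold change of Gusb was 0.19 (SE 0.0697, limma adjusted p = 0.151).

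At the other end of this group stood the sulfatases Arsb and Ids, which act on glycosaminoglycans. Arsb was at 84.8, 81.8, 83.3 and 85.9 FPKM in the controls and at 72.4, 84 and 81.8 FPKM in the mutants. Ids was at 76.7, 72.4, 71.8 and 75.2 FPKM in the controls and at 67.5, 76.4 and 77.2 FPKM in the mutants. For both genes mutant 1 was the lowest of all samples and the other mutants lay near the controls. The log2 fold changes were -0.08 for Arsb (SE 0.0647, limma adjusted p = 0.458) and -0.01 for Ids (SE 0.0650, limma adjusted p = 0.953), and that of Ids was 0.05 without mutant 1. Naglu, Idua, Man2b1 and Neu1, which degrade heparan sulfate, glycosaminoglycans, mannose chains and sialic acid residues, had log2 fold changes from 0.03 to 0.20 and overlapped between genotypes. Mutant 1 was the highest of all samples for each of these 4 genes, and the median of the whole group was 0.05 without mutant 1. Idua overlaps Slc26a1 and Dgkq on the opposite strand, and whether the counting used the strand is not given in the sources used here.

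Of the 10 proteases, 9 had a log2 fold change above 0, 6 after median centring and 7 on normalized counts, with a median of 0.14. None passed the limma test, and 3 (Ctsh, Ctsf and Ctsb) were higher at an unadjusted p under 0.05. Ctsd, the main aspartyl protease of lysosomes, was the most abundant, followed by the cysteine protease Ctsl. Ctsd was at 416, 431, 411 and 505 FPKM in the controls and at 473, 444 and 479 FPKM in the mutants. The mutants lay within the range of the controls, with a log2 fold change of 0.08 (SE 0.0851). Ctsd overlaps Ifitm10 on the same strand.

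Ctsh (chromosome 9, 90054152 to 90076089, plus strand), an aminopeptidase of the cathepsin family, had the largest difference among the proteases. It was at 62.8, 51.3, 61.2 and 61.5 FPKM in the controls and at 101, 69.0 and 78.0 FPKM in the mutants. No mutant overlapped the controls, mutant 1 stood highest and control 2 lowest. The log2 fold change was 0.46 (SE 0.126) with a limma adjusted p of 0.0820. The adjusted p was 0.0274 with the replicate block, which leaves control 4 out of the difference, and 0.0392 without mutant 2. Ctsk, a collagen-degrading cathepsin, was at 23.9, 17.3, 20.2 and 18.8 FPKM in the controls and at 34.6, 21.0 and 23.8 FPKM in the mutants. Its difference of 0.37 (SE 0.167, limma adjusted p = 0.213) was largest in mutant 1, and without that sample it was 0.16.

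Ctsf and Ctsb, which are cysteine proteases, also had all mutants above all controls. Ctsf was at 31.3, 29.0, 33.2 and 34.9 FPKM in the controls and at 43.0, 35.7 and 37.3 FPKM in the mutants. Ctsb was at 116, 109.6, 114 and 122 FPKM in the controls and at 132, 124 and 132 FPKM in the mutants. The log2 fold changes were 0.26 for Ctsf (SE 0.0868, limma adjusted p = 0.120) and 0.17 for Ctsb (SE 0.0586, limma adjusted p = 0.135). Ctsb overlaps Fdft1, a gene of sterol synthesis, on the opposite strand.

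Ctsl was the one protease with a negative difference. It was at 217, 202, 193 and 196 FPKM in the controls and at 193, 189 and 184 FPKM in the mutants. All mutants were below all controls, though mutant 1 lay barely below control 3, and the log2 fold change was -0.10 (SE 0.0614, limma adjusted p = 0.357). Ctsa, the carboxypeptidase that also shields Neu1 and Glb1 from breakdown, was at 146, 138, 148 and 161 FPKM in the controls and at 164, 152 and 149 FPKM in the mutants. The groups overlapped, the log2 fold change was 0.06 (SE 0.0686), and it turned to -0.02 after median centring. Ctsc (dipeptidyl peptidase I), Ctsz (a carboxypeptidase) and Tpp1 (tripeptidyl peptidase I) overlapped between genotypes, with log2 fold changes of 0.23, 0.11 and 0.07. Ctsa overlaps Pltp and Neurl2, and Ctsz overlaps Nelfcd, on the opposite strand.

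The lipase and the thioesterase differed in sign. Lipa, the acid lipase that frees cholesterol and fatty acids from cholesteryl esters and triglycerides, was at 24.6, 26.9, 24.1 and 24.7 FPKM in the controls and at 23.8, 23.3 and 23.9 FPKM in the mutants. All mutants were below all controls by a narrow margin, and the log2 fold change was -0.08 (SE 0.0616, limma adjusted p = 0.447). Ppt1, which removes palmitate from proteins, was at 61.5, 59.1, 59.2 and 67.8 FPKM in the controls and at 70.1, 74.0 and 60.6 FPKM in the mutants. Mutant 3 lay among the controls, and the log2 fold change was 0.14 (SE 0.0830, limma adjusted p = 0.342). Ppt1 overlaps Cap1 on the opposite strand.

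The 5 membrane proteins were divided, with 2 above 0, 3 below and a median of -0.03. None passed the limma test, and both genes above 0 (Lamp2 and Cln3) were higher at an unadjusted p under 0.05. Lamp1, the major glycoprotein of the lysosomal membrane and the most abundant of the 36 genes, was at 558, 548, 554 and 557 FPKM in the controls. In the mutants Lamp1 was at 489, 557 and 514 FPKM. The controls lay close together, mutant 2 was among them and the other 2 mutants were below, with a log2 fold change of -0.09 (SE 0.0666, limma adjusted p = 0.411). Lamp2 (chromosome X, 38401357 to 38456454, minus strand), its relative that also serves chaperone-mediated autophagy, was at 108, 94.2, 99.7 and 104 FPKM in the controls and at 133, 116 and 119 FPKM in the mutants. All mutants were above all controls, with a log2 fold change of 0.27 (SE 0.0717, limma adjusted p = 0.0771). With the replicate block, without control 4 in the difference, the adjusted p of Lamp2 was 0.04998, just under the threshold.

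Scarb2, which encodes the lysosomal membrane protein LIMP-2, had the lowest difference of the membrane proteins. It was at 132, 108, 115 and 123 FPKM in the controls and at 98.1, 114 and 103 FPKM in the mutants. Mutant 2 lay within the controls and the other mutants below them, and the log2 fold change was -0.18 (SE 0.0833, limma adjusted p = 0.216). Cln3, the membrane protein affected in juvenile Batten disease, was at 19.4, 20.4, 20.3 and 19.4 FPKM in the controls and at 20.9, 23.5 and 22 FPKM in the mutants. Every mutant was above every control, with a log2 fold change of 0.15 (SE 0.0645, limma adjusted p = 0.196). Cln3 overlaps Apobr on the opposite strand. Mcoln1, the TRPML1 calcium channel, overlapped between genotypes with a log2 fold change of -0.03.

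Tfeb was at 42.7, 38.8, 49.9 and 63.9 FPKM in the controls and at 43.3, 39.5 and 40.5 FPKM in the mutants. The controls spread widely, control 4 stood apart at the top and control 2 was the lowest of all samples. The log2 fold change of -0.22 (SE 0.149, limma adjusted p = 0.393) was the lowest of the 36 genes, and it was -0.08 without control 4. The 5 genes with TCACGTGA in the promoter window printed above had a median log2 fold change of 0.07, and the 12 with CACGTG, these 5 included, of 0.08. The 21 genes with a window but without the motif had a median of 0.14. Fuca1, Lamp2 and Gm2a were among those 21, Gaa was among the 12, and Ctsb, Ctsh and Asah1 had no window in the table.

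**Figure D3:**
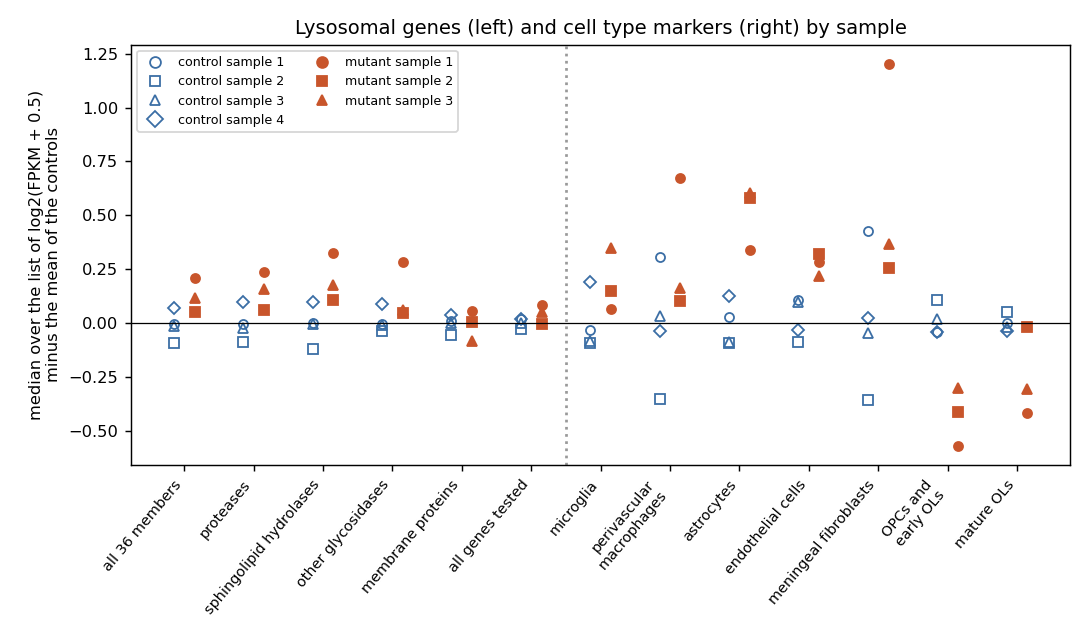
Median over each list of log2(FPKM + 0.5) minus the mean of the controls, by sample, for the lysosomal genes and all tested genes (left of the dotted line) and for markers of cell types (right). Open symbols are controls and filled symbols mutants, with 1 shape per replicate number. For the sphingolipid genes the mutants lie at 0.105 to 0.33 and the controls at -0.12 to 0.098, so the highest control and the lowest mutant nearly meet. Mutant 1 stands at 1.2 for meningeal fibroblasts.

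The sphingolipid genes thus lay at -0.12 to 0.10 in the controls and at 0.10 to 0.33 in the mutants as a median over the 9 genes, relative to the mean of the controls. The highest control was at 0.098 and the lowest mutant at 0.105, so the genotypes were barely separate. The proteases lay at -0.09 to 0.10 and at 0.06 to 0.24, and the other glycosidases and sulfatases at -0.04 to 0.09 and at 0.05 to 0.28. Both of these groups overlapped narrowly between genotypes, with control 4 above mutant 2. The membrane proteins were at -0.05 to 0.04 and at -0.08 to 0.05. Mutant 1 had the highest median and mutant 2 the lowest among the mutants in the first 3 of these groups. Medians over all tested genes were between -0.03 and 0.08 in every sample. Differences between these groups of genes were not tested.

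Lysosomal genes are expressed in many cell types, and markers of several of them were unequal between genotypes beside the values above. Of 16 microglial markers 15 were above 0 (13 in each of the other scalings), with a median of 0.19 and none called (4 higher at an unadjusted p under 0.05), and their summed level was 381 to 478 FPKM in the controls and 438 to 484 FPKM in the mutants. All 6 markers of perivascular macrophages were above 0, with a median of 0.30 and none called (2 unadjusted), at 42.5 to 72.4 FPKM and 53.5 to 91.0 FPKM in sum. All 10 astrocyte markers were above 0 and 4 of them were called higher, with a median of 0.52, and their sums were 3053 to 3512 FPKM and 3943 to 4841 FPKM. All 8 endothelial markers were above 0, with a median of 0.27, none called (5 unadjusted) and sums of 264 to 312 FPKM and 360.2 to 418 FPKM. All 8 markers of meningeal fibroblasts were above 0, with a median of 0.59 and none called (5 unadjusted). Their sum was 7621 to 8779 FPKM in the controls and 9830.1 to 19148 FPKM in the mutants, highest in mutant 1. Most of this sum was Ptgds, at 5678 to 6619 FPKM in the controls and 7427 to 14540 FPKM in the mutants. The genotypes overlapped for 6 of the 8 markers, and all mutants were above all controls for Ptgds and Slc22a6 (25%, beside 12.9% of all tested genes). Of 8 genes of OL progenitor cells (OPCs) and of committed or newly formed OLs 7 were below 0 (median -0.42, sums of 853 to 998 FPKM and 586 to 753 FPKM). The 3 called lower were Gpr17 and Neu4, which mark the committed stages, and the OPC gene Cspg4, whereas the OPC gene Pdgfra had a log2 fold change of -0.14 and Ptprz1 one of 0.08, neither called. Of 12 markers of mature OLs 11 were below 0 and 2 were called lower (none on normalized counts; median -0.22, sums of 59336 to 67141 FPKM and 43652 to 55503 FPKM). With the replicate block, which leaves control 4 out of the difference, the calls were 8 of the 10 astrocyte, 5 of the 8 meningeal fibroblast, 2 endothelial, 1 microglial and 1 perivascular macrophage markers, all higher, 5 of the 8 genes of OPCs and early OLs, all lower, and none for mature OLs. No marker was at 0 in any sample, and the part of these cell types in the lysosomal values was not tested.

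Of 114 other genes of the lysosome and its control, 113 were tested and 72 were above 0 (63.7%), with a median log2 fold change of 0.06. After median centring, 50 were above 0 and the median was -0.02, beside 43.2% above 0 and a median of -0.03 for all tested genes. The test called 3 of them higher (2.65%) and none lower, whereas 17 were higher (15.04%, beside 15.9% of all tested genes) and 8 lower (beside 1178 of the 13866 tested) at an unadjusted p under 0.05. All 3 encode products outside the hydrolases themselves. Cst3, which encodes the cysteine protease inhibitor cystatin C, was at 940.5, 1003, 1002 and 1215 FPKM in the controls and at 1482, 1389 and 1470 FPKM in the mutants. Cd63, a tetraspanin of lysosomes and exosomes, was at 133, 129.8, 125 and 135 FPKM in the controls and at 166, 163 and 174 FPKM in the mutants. Sumf1, the enzyme of the endoplasmic reticulum that activates sulfatases, was at 26.7, 22.9, 25.4 and 25.2 FPKM in the controls and at 35.4, 31.5 and 32.5 FPKM in the mutants. All mutants were above all controls for each of the 3 genes. Cst3 rose by 0.48 (SE 0.0994), Cd63 by 0.36 (SE 0.0558) and Sumf1 by 0.40 (SE 0.0730) on the log2 scale, with limma adjusted p values of 0.0446, 0.0234 and 0.0337. With any 1 of control 1, control 2, control 3 or mutant 3 left out, none of these calls held, with adjusted p values of 0.0550 to 0.143. The call of Sumf1 was also lost without control 4 (0.0676), and those of Sumf1 and Cst3 without mutant 1 (0.0685 and 0.0906). On normalized counts none was called (0.0503 for Cd63 and Sumf1, 0.0544 for Cst3), median centring left only that of Sumf1, with no filter only Cd63 was called, and trimmed-mean scaling lost that of Cst3 (0.0614).

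By class, 17 of 18 other hydrolases, Sumf1 counted among them, were above 0, with a median of 0.21 (16 of 18 and 0.13 after median centring). The medians of the other 7 classes were between -0.02 and 0.09, and 4 of them turned from above to below 0 after centring. The proteases and inhibitors had 7 of 8 above 0, and 3 after centring. The other membrane proteins had 5 of 7 above 0, and 3 after centring. Lipid exporters and transporters had 10 of 17, and 7 after centring. For subunits of the V-ATPase, the proton pump that acidifies lysosomes, 9 of 18 were above 0 with a median of -0.02. After centring, 3 of 18 were above 0 with a median of -0.10, beside 43.2% and -0.03 for all tested genes. All mutants were below all controls for 4 of the 18 subunits (22.2%, beside 8.26% of all tested genes). Sorting factors of the mannose 6-phosphate route had 9 of 13 above 0, and 5 after centring. TFEB relatives and mTORC1 components had 8 of 19 above 0, and 6 after centring, and autophagy receptors and Atg8 proteins 7 of 13 in both. All mutants were above all controls for 12.9% of all tested genes. This was so for 5 of 13 autophagy genes (38.5%) and 3 of 7 other membrane proteins (42.9%). It was also so for 4 of 18 other hydrolases (22.2%) and 2 of 8 proteases and inhibitors (25%). TFEB relatives and mTORC1 components had 2 of 19 above (10.5%) and 3 below (15.8%). Lipid exporters and transporters had 1 of 17 above, and the sorting factors 0 of 13. The values of these classes are drawn in the plot of the other lysosomal genes.

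**Figure D4:**
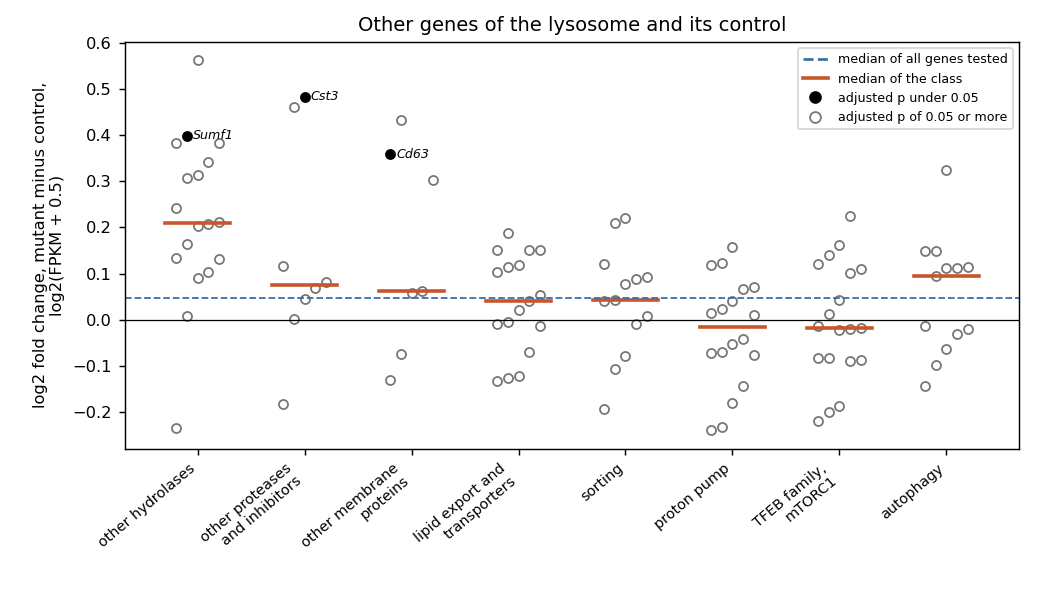
Log2 fold change, mutant minus control, on log2(FPKM + 0.5), of the 113 other lysosomal genes tested, 1 point per gene, by class. The short lines are the medians of the classes and the dashed line is the median of all tested genes. Filled points are Sumf1, Cst3 and Cd63, the 3 genes with an adjusted p under 0.05, and the other hydrolases have the highest class median, 0.21, which is 0.13 after median centring.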

How the data were processed

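RNA-seq of P14 optic nerves covered 7 samples, grouped by the genotype and number in their titles. Per the labels, libraries were made with a stranded poly-A kit and read in single end mode, and the submitters' processing notes name STAR (2.5.1b), RSEM (1.2.22), edgeR and GRCm38. The authors deposited, per gene and sample, a normalized count (a signal made by dividing RSEM estimates by a size factor whose method is not given in the sources used here) and FPKM. Deposited FPKM differed from values recomputed from the normalized counts and gene lengths by at most 0.284%. The authors' own fold changes, p-values and FDR in the table were not used.

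The table holds no raw counts, so no count test was made. The worth of 1 read was read from the spacing of low values, but only 62.6% to 79.3% of low values were whole multiples of it, so reads served for depth only, as estimates that cover counting error alone. Replicates differed by more than sampling noise (median chi-square per gene of 2.08 to 5.74 over pairs). limma-trend (limma 3.58.1, R 4.3.3; checked on simulated data) was fitted to log2(FPKM + 0.5) with genotype as the only term, and a gene entered when 3 or more samples had an FPKM of 0.5 or above. Fold changes on this scale understate those of low genes. The smallest two-sided p of an exact permutation test of 4 samples against 3 is 0.0571, so none was used.

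Deviations from the group means correlated at 0.168, 0.409 and 0.270 between same-numbered samples, all above 0.1. Control 4 and mutant 1, whose numbers differ, correlated at 0.205, above the first of these values. The numbers were therefore treated as a possible pairing, a hint from the data only, and entered the replicate block but not the main fit. Alternatives were pseudocounts of 0.1 and 1, no filter, a mean FPKM of at least 2, 2 scalings, normalized counts, sample weights, the replicate block and leaving out each sample. The 36 genes, the other lists and the promoter motif were chosen with earlier results of these data known. All 7 sample values are printed for genes past the threshold, the 2 highest and 2 lowest differences of each role of at least 5 genes, all genes of smaller roles, the 3 most abundant genes and genes whose groups did not overlap. Some results are not reported here.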

Additional observations from a re-analysis of the deposited data

Results flagged for a closer look

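Among the 4 controls, the level of Ctsh in control 2, 51.3 FPKM, stood apart from the other 3, with a gap to the nearest of 0.861 of the whole range of the controls. Of 40 genes examined in this way (the 36, 3 other lysosomal genes and Fasn) it was the only one, and chance marks about 1 group in 20.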

How the results depend on the processing

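The number of genes called, 363 of all tested, was 95 with no filter, 1525 with sample weights, 1159 with the replicate block and 6 to 907 with 1 sample left out. The number of lysosomal genes called, 1 of 36, was 0 with no filter, 5 with sample weights (Asah1, Ctsh, Fuca1, Gm2a, Lamp2), 4 with the replicate block and 0 to 2 with 1 sample left out. For the 113 other lysosomal genes, 3 of which were called, the number was 1 with no filter, 1 on normalized counts, 11 with sample weights, 7 with the block (Cd164, Cd63, Cst3, Laptm4a, Manba, Smpdl3a, Sumf1) and 0 to 7 with 1 sample left out. The block changed no other call among these genes. Median log2 fold changes after median centring and on normalized counts were 0.0606 and 0.0671 for the 36 genes, -0.0546 and -0.0505 for the lipase and thioesterase, and -0.112 and -0.108 for the membrane proteins. The median of the proteases was 0.0539 after centring. That of the other glycosidases was 0.0781 with sample weights and 0.0537 (without mutant 1) to 0.216 with 1 sample left out. The sphingolipid median was 0.11 to 0.26 over all settings. After centring, and on normalized counts where a second value stands, log2 fold changes turned for Ctsa (-0.0219, -0.0173), Ctsd (-0.000496), Tpp1 (-0.0145, -0.00937), Galc (-0.0238, -0.0174), Gla (-0.0134, -0.00227), Arsa (-0.000649) and Neu1 (-0.0535, -0.0480). Sample weights turned Arsa (-0.00145) and Ids (0.0460), and trimmed-mean scaling Neu1 (-0.0233). With 1 sample left out the values ran from -0.0409 to 0.209 for Arsa, -0.0547 to 0.0982 for Neu1, -0.0182 to 0.325 for Naglu and -0.0431 to 0.0537 for Ids. Over all alternatives, 581 values of single genes kept direction and side of the threshold, 30 lost and 8 gained a call and 21 turned. The cause was not tested. The standard errors given, from 3 and 4 animals, set the size of difference that could be resolved.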
